A study of Mus musculus with 6 samples.

Results

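The integrated stress response and its amino acid genes were followed in tongue epithelium of mice with and without an inducible deletion of Ire1α in keratinocytes. The set held 35 genes picked by name, of 55421 genes in the table: the ATF4 pathway, serine and one-carbon enzymes, amino acid transporters and tRNA synthetases. Of these, 32 passed the filter on low values (a normalised read count of at least 10 in at least 3 libraries), as did 10987 genes of the whole table. The 6 mice gave 1 library each by 3'-end mRNA sequencing (QuantSeq, which tags each mRNA near its poly(A) tail). The 3 controls had floxed Ire1α alleles and no Cre (genotype IRE1F/F, called WT here). Their 3 littermates carried the same floxed alleles with K14CreERT2, a Cre recombinase that is active only with tamoxifen and is driven by the keratin 14 promoter of basal keratinocytes (KO). All mice, WT included, received tamoxifen daily on 4 days and were harvested on day 5. A digestion of 10 min at 37 C was shared by all 6 samples, and its effect on these genes was not tested.

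The integrated stress response is a shared answer of cells to several kinds of stress. The kinases PERK, GCN2, PKR and HRI phosphorylate the initiation factor eIF2, which lowers general protein synthesis while the mRNA of the transcription factor ATF4 is translated more. ATF4 then switches on genes for amino acid synthesis and import, for charging tRNAs and, through CHOP (Ddit3), for limiting or ending the response. PERK and Ire1α are parallel sensors of unfolded protein in the endoplasmic reticulum, and the 2 genotypes differ in the second of them. ATF4 activity itself is set largely by translation and was not measured, since the libraries count mRNA.

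Many ATF4 targets carry a C/EBP-ATF response element, a composite site with the core TGATGNAA. RefSeq start sites on GRCm38.p6 could be matched for 29 of the 35 genes, and the 250 bases before each start were searched on both strands. The core or its reverse complement TTNCATCA was found in 9 of the 34 windows of these genes (some have more than 1 start), against 3.45% of all 32851 upstream windows. The set was picked by name around the ATF4 pathway, so a higher share may follow from that choice and was not tested. Those 9 windows belong to 9 genes, Aars, Asns, Chac1, Fgf21, Gars, Nupr1, Pck2, Slc7a11 and Vldlr. Of these 9 genes 8 were tested, with log2 fold changes of KO over WT from -0.58 to 0.34 (5 positive, median 0.06) and 0 calls. Of the 20 genes without the core 19 were tested, with 12 positive, a median of 0.16 and 1 call. That call was Gdf15, the single gene of the set that passed the test. Over all tested genes 1.22% were called higher and 0.583% lower, so calls this rare do not tell the 2 groups apart. The first 3 windows printed here are from well-known targets that hold the core, which is in capitals, and the last 2 are from Gdf15 and Slc7a1, whose mRNAs stood furthest above WT and whose windows do not hold these letters.
Asns (chr6:7693210-7693459, minus strand): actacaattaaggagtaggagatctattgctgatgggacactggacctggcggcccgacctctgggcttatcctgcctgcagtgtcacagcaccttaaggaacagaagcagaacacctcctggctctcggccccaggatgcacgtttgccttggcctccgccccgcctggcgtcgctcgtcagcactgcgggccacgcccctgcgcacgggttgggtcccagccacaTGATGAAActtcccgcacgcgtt
Chac1 (chr2:119350992-119351241, plus strand): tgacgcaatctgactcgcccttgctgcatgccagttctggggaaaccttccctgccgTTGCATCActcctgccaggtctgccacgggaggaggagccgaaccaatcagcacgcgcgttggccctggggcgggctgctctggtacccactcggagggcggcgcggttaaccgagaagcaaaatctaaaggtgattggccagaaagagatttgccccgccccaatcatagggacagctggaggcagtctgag
Slc7a11 (chr3:50443614-50443863, minus strand): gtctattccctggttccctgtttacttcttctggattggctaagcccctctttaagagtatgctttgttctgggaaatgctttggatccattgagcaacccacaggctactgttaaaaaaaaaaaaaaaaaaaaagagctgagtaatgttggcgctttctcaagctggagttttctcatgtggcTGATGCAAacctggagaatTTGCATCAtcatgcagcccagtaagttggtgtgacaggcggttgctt
Gdf15 (chr8:70632457-70632706, minus strand): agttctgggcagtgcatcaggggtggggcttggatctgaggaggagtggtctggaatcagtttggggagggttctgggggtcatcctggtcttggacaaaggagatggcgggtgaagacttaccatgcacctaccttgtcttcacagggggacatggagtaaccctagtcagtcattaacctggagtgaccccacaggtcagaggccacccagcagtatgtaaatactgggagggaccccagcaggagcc
Slc7a1 (chr5:148399905-148400154, minus strand): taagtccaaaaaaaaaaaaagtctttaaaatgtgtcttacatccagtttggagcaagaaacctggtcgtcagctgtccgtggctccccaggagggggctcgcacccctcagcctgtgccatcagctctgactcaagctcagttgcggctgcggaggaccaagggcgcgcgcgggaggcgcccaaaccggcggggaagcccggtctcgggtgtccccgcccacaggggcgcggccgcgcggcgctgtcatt
The core began 23 bases before the start of Asns, 193 bases before that of Chac1, and 66 and 47 bases before that of Slc7a11. Asns had a log2 fold change of 0.34, Chac1 of 0.07 and Slc7a11 of 0.05. A match to these letters is a description of the sequence and not evidence of a bound site. Their absence covers the 250 bases before a start only, since no other part of a gene was searched.

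Across the set, Gdf15 rose in KO and the remaining 31 tested genes did not pass the test (limma, Benjamini-Hochberg adjustment over all 10987 tested genes at 0.05). Over all genes, 1.22% of tested genes were called higher in KO and 0.583% lower. At such shares a count of 0 in a short list says little about the genes of that role. Of the 32 genes, 4 had an unadjusted limma p under 0.05 (Gdf15, Slc7a1 and Wars higher, Aldh1l2 lower), a share close to the 13.5% of all tested genes. All 3 KO libraries lay above all 3 WT libraries for Gdf15, Slc7a1 and Wars, and below them for Aldh1l2 and Pck2. For Gdf15 the filter fixed this in advance, since its values were below 10 in every WT library. Groups stood apart in those directions for 9.84% and 9.25% of all tested genes. The median log2 fold change of the set was 0.13, against -0.01 for all tested genes, and 20 of 32 values were positive (62.5%, against 49.1%). Without KO replicate 1 the median was 0.07 and 18 of 32 values were positive. For 22 of the 31 genes that did not pass, the 95% interval of the log2 fold change lay within -1 to 1. It reached past a 2-fold difference for Aldh1l2, Atf5, Cth, Ddit3, Mars1, Pck2, Psph, Slc7a1 and Wars. The log2 fold changes of limma were taken from log2(value + 1), so they come out too small where counts are low.

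**Figure D1:**
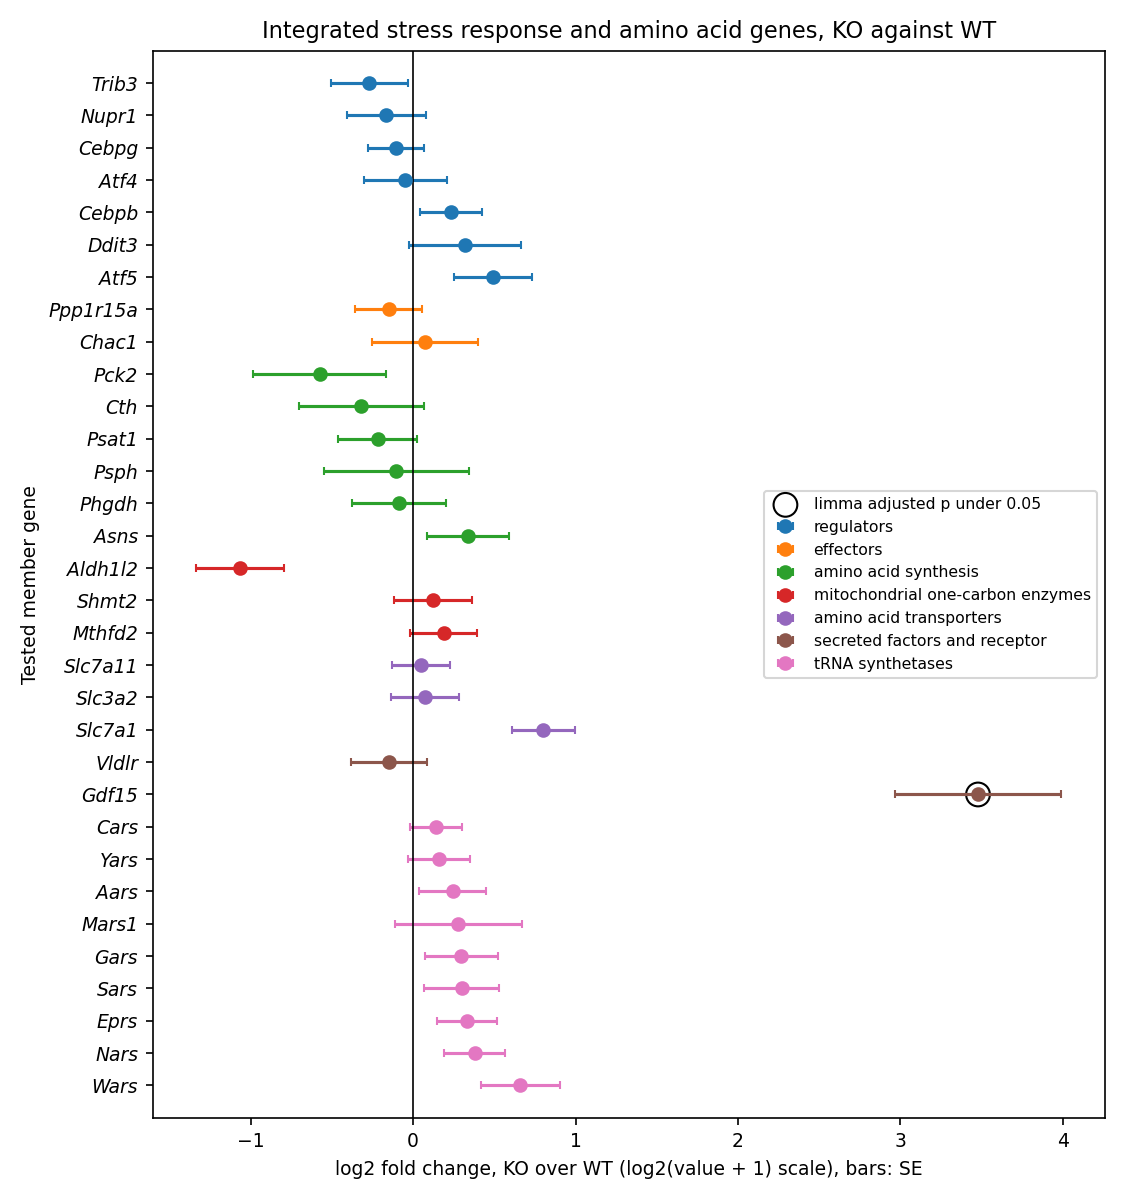
Log2 fold change of KO over WT (x axis, log2(value + 1) scale) for each of the 32 tested genes, grouped by role, with bars for the SE of limma. Gdf15 at 3.48 is the single ringed gene (limma adjusted p under 0.05), Slc7a1 at 0.80 and Aldh1l2 at -1.07 are the next furthest from 0, and all 9 tRNA synthetases lie to the right of 0.

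Libraries held 4606309 to 6286153 reads, and Spearman correlations across tested genes within a group were 0.944 to 0.968. The targeted gene Ern1, which encodes Ire1α, gave normalised read counts of 77.1 to 105 in WT and 78.0 to 123 in KO, and did not pass (limma adjusted p = 0.847 for a log2 fold change of 0.15 ± 0.24 SE). The deleted exons are not named in the labels, and a 3' tag outside them checks nothing about the genotype. Of the markers of the labelled cell type, keratinocyte, 8 of 8 were above 0, with a summed level of 490826 to 865387 per library, and 1, Itgb4, was called higher in KO. KO replicate 1 stood apart in markers of other tissue: the 7 skeletal muscle markers (6 above 0, Acta1 at 0) summed to 1684 there and to 66.4 to 306 in the other 5 libraries. The 4 erythrocyte markers summed to 1170, against 44.0 to 479, and the 4 nerve and glia markers to 43.3, against 2.61 to 6.89. KO replicate 1 was also highest for endothelium (63.9, against 19.6 to 45.7), leukocyte (257, against 120 to 220) and keratinocyte markers (865387). It was not highest for fibroblast, salivary gland or taste bud markers. Fibroblast markers (6 of 6 above 0) summed to 1362 to 1877 in WT and 213 to 1073 in KO, and 1 of them, Dcn, was called lower. The 4 melanocyte markers summed to 15.7 to 28.7 in WT and 28.6 to 59.6 in KO, highest in KO replicate 1, and 1 of them, Mlana, was called higher. In such bulk tissue, fewer cells of a type and less RNA per cell cannot be told apart.

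The regulators showed 0 calls among 7 tested genes in either direction with limma, edgeR or DESeq2, and 0 at an unadjusted limma p under 0.05. Over all tested genes limma called 1.22% higher and 0.583% lower, and 13.5% had an unadjusted p under 0.05. Atf4, the transcription factor at the centre of the response, had normalised read counts of 919, 986 and 1805 in the WT mice, in replicate order, and of 1114, 985 and 1350 in the KO mice. WT replicate 3 was the highest of the 6 libraries and the KO values lay inside the WT range. The log2 fold change was -0.05 ± 0.26 SE (limma adjusted p = 0.961), with a 95% interval of -0.61 to 0.52. The sign was not stable: leaving out WT replicate 3 gave 0.26, leaving out KO replicate 2 gave 0.06, and a weight per library gave 0.24.

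Ddit3 encodes CHOP, the factor downstream of ATF4 that is linked to cell death. Its main gene entry gave 17.9, 25.3 and 13.1 in WT and 20.6, 27.6 and 21.0 in KO. The groups overlapped, with the second replicate highest in each, and the log2 fold change was 0.32 ± 0.34 SE (limma adjusted p = 0.759). A second entry of the same name, ENSMUSG00000116429, lies wholly inside the first in GENCODE M21 and was 0 in all 6 libraries. Trib3, a pseudokinase that CHOP and ATF4 induce and that dampens both, gave 56.5, 45.4 and 49.6 in WT and 35.8, 43.1 and 46.7 in KO. KO replicate 1 was lowest, the KO replicate 3 value exceeded that of WT replicate 2, and the log2 fold change was -0.27 ± 0.24 SE (limma adjusted p = 0.689).

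Among the other regulators Atf5, a factor translated like ATF4 under stress, averaged 150 ± 36.7 (SD, n = 3) in WT against 210 ± 49.8 in KO, a log2 fold change of 0.49 (limma adjusted p = 0.414). KO replicate 1 gave its highest value, 267. Cebpb and Cebpg, dimer partners of ATF4, had log2 fold changes of 0.23 and -0.11. Nupr1, a small stress-induced chromatin protein, had -0.17. Taken by library, the mean of the 7 regulators lay within -0.08 to 0.11 log2 units of the WT mean in all 6 libraries.

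The effectors that act on the response itself also showed 0 calls among 2 tested genes by all 3 tools, and 0 at an unadjusted limma p under 0.05. With 1.22% of all tested genes called higher by limma and 0.583% lower, 0 of 2 says little. Ppp1r15a (GADD34), which brings a phosphatase to eIF2 and so ends the response, averaged 94.3 ± 12.7 in WT against 84.8 ± 10.0 in KO, a log2 fold change of -0.15. Its 3' end shares 717 bases with Tulp2 on the opposite strand in GENCODE M21, where reads of the 2 genes may not be told apart. Chac1, an enzyme that breaks down glutathione and is among the strongest ATF4 and CHOP targets, gave 557, 276 and 422 in WT and 256, 575 and 513 in KO. In each group 1 library was low, WT replicate 2 and KO replicate 1, and the others were high, so the groups spanned a like range. The log2 fold change was 0.07 ± 0.33 SE (limma adjusted p = 0.951).

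**Figure D2:**
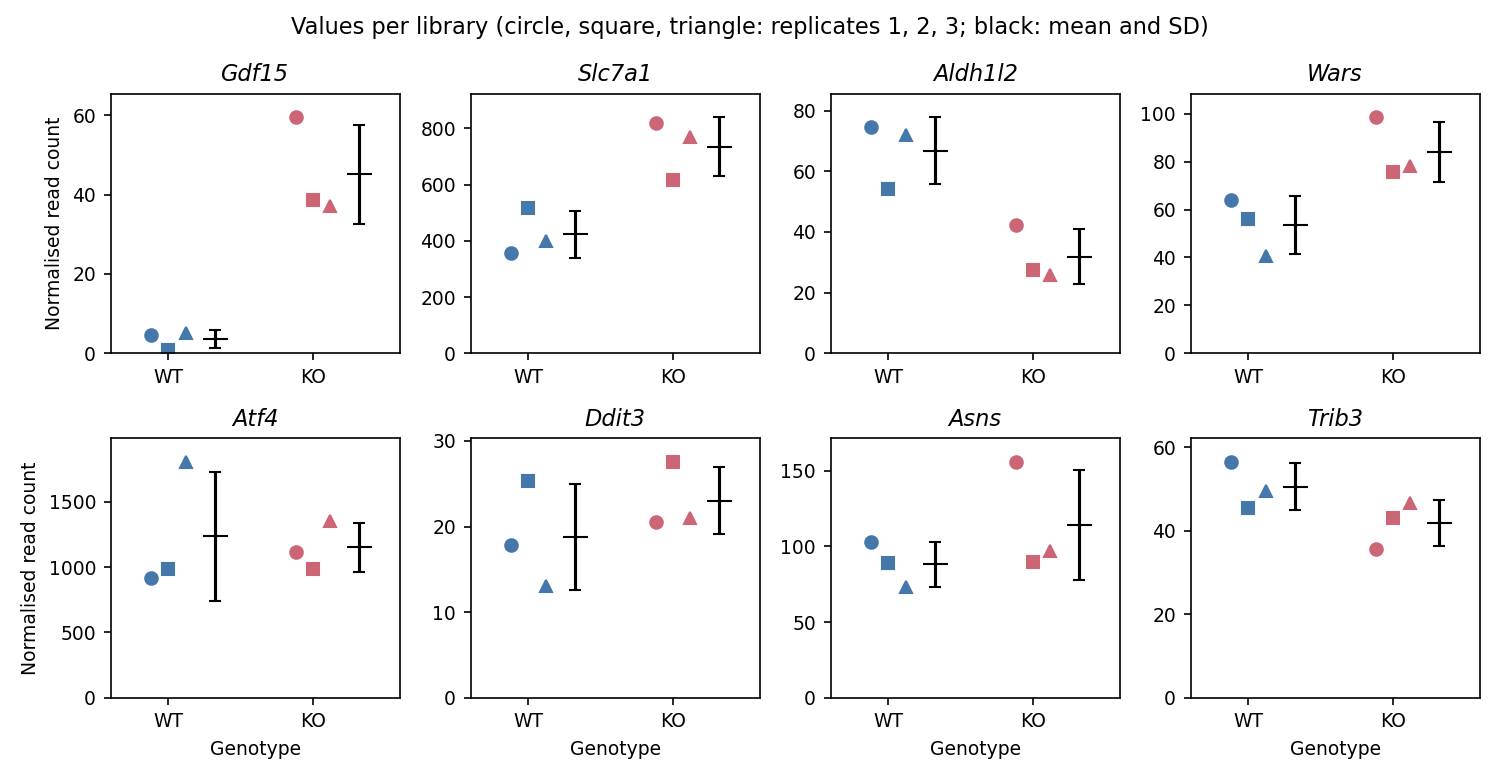
Normalised read count per library (y axis, linear from 0) for 8 genes in WT and KO, with circle, square and triangle for replicates 1, 2 and 3 and black bars for mean and SD. The groups stand apart for Gdf15, Slc7a1, Aldh1l2 and Wars in the upper row and overlap for Atf4, Ddit3, Asns and Trib3 in the lower row.

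Enzymes of amino acid synthesis showed 0 calls among 6 tested genes by all 3 tools and 0 at an unadjusted limma p under 0.05. Limma called 1.22% of all tested genes higher and 0.583% lower, and 13.5% had an unadjusted p under 0.05. The 6 enzymes had 5 negative log2 fold changes and 1 positive one. The positive one was Asns, asparagine synthetase, a classic target of the amino acid response. It gave 103, 89.0 and 73.1 in WT and 156, 89.6 and 97.2 in KO. KO replicate 1 lay above every other library and the other 5 libraries overlapped (log2 fold change 0.34 ± 0.25 SE, limma adjusted p = 0.626; without KO replicate 1 the value was 0.09). The 3 enzymes of serine synthesis, Phgdh, Psat1 and Psph, had log2 fold changes of -0.09, -0.22 and -0.10, with groups that overlapped. Psph ranged from 13.1 to 34.0 in WT and from 14.1 to 37.1 in KO, so its 95% interval was as wide as -1.09 to 0.89.

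Pck2, the mitochondrial enzyme that makes phosphoenolpyruvate, gave 11.3, 12.2 and 18.3 in WT and 7.58, 8.62 and 10.5 in KO. All KO values lay below all WT values, at levels of 7 to 14 reads per library, where counting error is large. Its log2 fold change was -0.58 ± 0.41 SE and did not pass (limma adjusted p = 0.604). Cth, which makes cysteine from cystathionine, was at similar depth, with means of 15.9 ± 1.54 and 13.1 ± 5.12 and a log2 fold change of -0.32 (limma adjusted p = 0.791).

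The 3 mitochondrial one-carbon enzymes, with 0 calls by limma, edgeR or DESeq2, had log2 fold changes of both signs. Limma called 1.22% of all tested genes higher and 0.583% lower. Aldh1l2, which oxidises formyl-tetrahydrofolate to carbon dioxide and makes NADPH, gave 74.5, 54.1 and 71.8 in WT and 42.3, 27.6 and 25.7 in KO. Every KO library lay below every WT library, and the means were 66.8 ± 11.1 and 31.9 ± 9.05 (SD, n = 3 each). The log2 fold change was -1.07 ± 0.27 SE, with a 95% interval of -1.67 to -0.46. It did not pass over all genes with limma (adjusted p = 0.0906), edgeR (adjusted p = 0.0961) or DESeq2 (adjusted p = 0.0978), and passed with an estimated weight per library (limma adjusted p = 0.0230). The last 1056 bases of Aldh1l2 (GENCODE M21 on GRCm38, chromosome 10 from 83487450 to 83534140 on the minus strand) are shared with D10Wsu102e on the opposite strand, and whether the counting used strand is not given here. D10Wsu102e gave 57.5, 58.5 and 91.4 in WT and 88.8, 72.4 and 92.4 in KO. The lower fibroblast marker levels in KO run in the same direction as Aldh1l2, and their part in the result was not tested. Shmt2 and Mthfd2, which load and convert one-carbon units from serine, had log2 fold changes of 0.12 and 0.19 and did not pass.

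Of the amino acid transporters, 3 of 4 were tested. With limma 0 passed and 1 had an unadjusted p under 0.05, with edgeR 0 passed and with DESeq2 1 did, Slc7a1 in each case. Slc7a1, the CAT1 importer of arginine and lysine, gave 355, 515 and 398 in WT and 818, 616 and 769 in KO. All KO values lay above all WT values, with KO replicate 2 the nearest to WT, and the means were 423 ± 82.5 and 734 ± 105 (1.74-fold). The log2 fold change was 0.80 ± 0.20 SE, with a 95% interval of 0.37 to 1.23. It did not pass with limma (adjusted p = 0.0785) and edgeR (adjusted p = 0.0838). DESeq2 on the recovered reads called it higher (adjusted p = 0.0166), together with Gdf15 and no other gene of the set, where 1.68% of genes given an adjusted p were called higher. It also passed with a weight per library (limma adjusted p = 0.0232). In the authors' deposited table of called genes, made from the same libraries, Slc7a1 had a log2 fold change of 0.79 (SE 0.225, adjusted p = 0.0196).

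Slc3a2, the heavy chain that pairs with several light-chain transporters, averaged 453 ± 74.0 in WT against 479 ± 110 in KO, a log2 fold change of 0.07. Slc7a11, the cystine-glutamate exchanger light chain, had 205 ± 25.8 and 211 ± 16.4 (log2 fold change 0.05), and its 95% interval of -0.35 to 0.45 was narrow. The groups thus stood apart for Slc7a1, which did not pass with limma or edgeR, and overlapped for the 2 subunits of the cystine exchanger. All KO values lay above all WT values for 9.84% of all tested genes, so these few genes set no pattern by type of transporter.

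Slc7a5, the LAT1 light chain for large neutral amino acids, was listed at 0 in all 6 libraries. In GENCODE M21 it lies wholly inside Gm20388, a gene model of 4.43 Mb on the opposite strand (chromosome 8, 119910841 to 124345722, GRCm38). Gm20388 itself was listed at 589 to 721. Of the 71 coding genes inside it, Slc7a5 included, 71 were at 0, 36 on its strand and 35 on the other. They include Rpl13, Cox4i1 and Map1lc3b, which most cells express. Within 1 Mb outside its ends 4 of 33 coding genes were at 0. In the whole table, 99.5% of 414 coding genes lying wholly inside a gene of the same strand and 99.7% of 755 inside one of the opposite strand were at 0, against 29.7% of 11829 coding genes that overlap no other gene. The 0 of Slc7a5 was therefore not read as absence of its mRNA in either genotype. GENCODE M21 holds 99.5% of the gene identifiers in the table, and the annotation used for the counting is not stated.

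**Figure D3:**
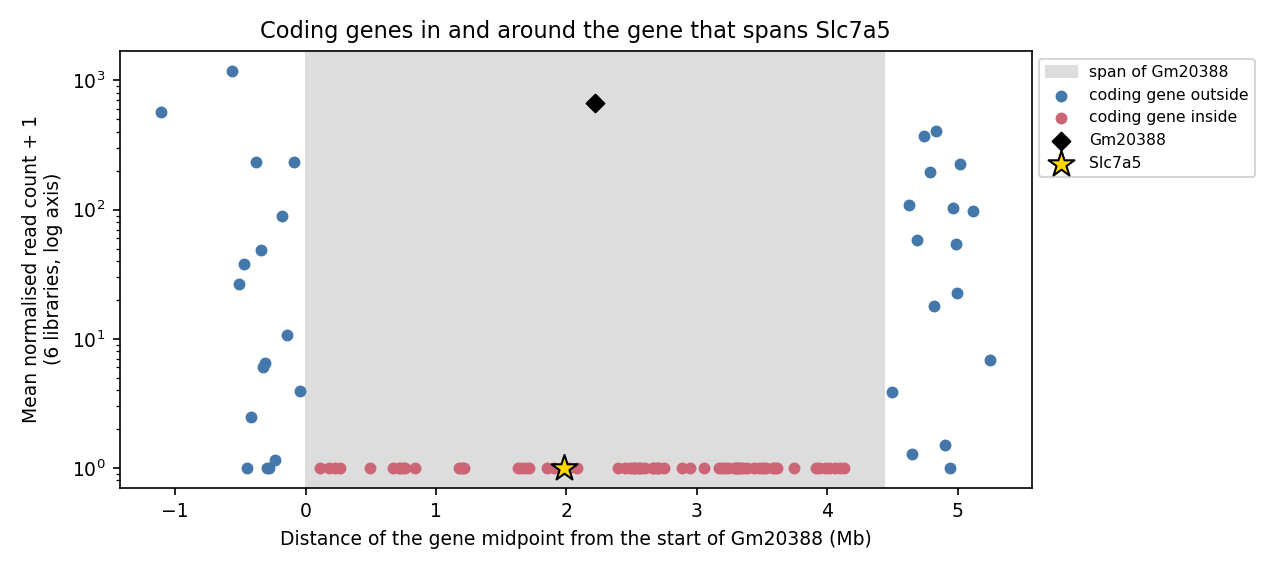
Mean normalised read count plus 1 over the 6 libraries (y axis, log scale) for coding genes inside and within 1 Mb of Gm20388, by distance of the gene's midpoint from its start in Mb (x axis). All 71 genes inside the grey span, Slc7a5 (star) among them, sit at 0 counts, and 4 of the 33 genes outside do.

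The secreted factors held the gene with the greatest difference in the set. Gdf15, a circulating stress hormone that lowers appetite through the receptor GFRAL and is known as a target of CHOP, ATF4 and p53, was counted at 4.71, 0.873 and 5.22 in WT and at 59.6, 38.8 and 37.2 in KO, in replicate order. These values stand for 5, 1 and 4 reads in WT and 55, 45 and 39 reads in KO. All KO libraries were far above all WT libraries, and the WT level was close to the limit of 3 reads that a count of 0 allows (2.59 to 3.92 in normalised units). Gdf15 passed the filter on low values through the KO group alone, so that its groups stood apart was fixed by the filter. The means were 3.60 ± 2.38 and 45.2 ± 12.5 (12.5-fold), and the log2 fold change was 3.48 ± 0.51 SE, with a 95% interval of 2.34 to 4.61 (limma adjusted p = 0.00798).

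Gdf15 also passed with edgeR (adjusted p = 0.00523) and DESeq2. The authors' deposited table, made from the same libraries, gives Gdf15 a log2 fold change of 3.71 (SE 0.639, adjusted p = 1.73e-06). Without KO replicate 1, the library with high muscle, erythrocyte and nerve markers, its log2 fold change was 3.27 and the limma adjusted p 0.0577, and it passed when any other single library was left out. KO replicates 2 and 3, with muscle markers at 66.4 and 306, had Gdf15 at 38.8 and 37.2. The muscle markers summed to 79.2 to 238 in WT. The part of these cells in the Gdf15 values was not tested. The gene (ENSMUSG00000038508; GENCODE M21 on GRCm38, chromosome 8 from 70629393 to 70632456 on the minus strand) overlaps no other gene model.

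Vldlr, a lipoprotein receptor that ATF4 induces in liver, averaged 79.3 ± 19.3 in WT against 70.1 ± 3.12 in KO, a log2 fold change of -0.15 (limma adjusted p = 0.847). Fgf21, a hormone that liver and muscle release under mitochondrial and dietary stress, and Stc2, a secreted glycoprotein, were at 0 in all 6 libraries. Neither overlaps another gene model in GENCODE M21, and a count of 0 allows up to 3 reads per library. Of the 3 secreted factors in the set, Gdf15 was thus the one above 0.

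The 9 cytosolic tRNA synthetases, which attach amino acids to their tRNAs, all had positive log2 fold changes, from 0.14 for Cars to 0.66 for Wars, with a median of 0.30. None of the 9 passed with limma, edgeR or DESeq2, where limma called 1.22% of all tested genes higher and 0.583% lower. An unadjusted limma p under 0.05 was found for 1 of the 9, and for 13.5% of all tested genes. That was Wars, for tryptophan, which gave 64.1, 55.8 and 40.5 in WT and 98.6, 75.8 and 78.1 in KO. The groups did not overlap, and the log2 fold change was 0.66 ± 0.24 SE (limma adjusted p = 0.246). Nars, Eprs, Sars, Gars, Mars1, Aars and Yars had log2 fold changes of 0.38, 0.33, 0.30, 0.30, 0.28, 0.24 and 0.16, and their groups overlapped. In GENCODE M21 the 3' end of Aars shares 1326 bases with Exosc6 on the same strand, and Mars1 and Ddit3 share 68 bases at theirs on opposite strands, where reads of the partners may not be told apart.

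The synthetase values differed among the KO libraries in 1 order. KO replicate 1 was the highest of the KO libraries for 9 of 9 and KO replicate 2 the lowest for 9 of 9. The mean of the 9 lay 0.61 log2 units above the WT mean in KO replicate 1, 0.33 in KO replicate 3 and -0.01 in KO replicate 2, against -0.05, -0.12 and 0.17 in WT. Eprs, the joint glutamate and proline enzyme, shows the order, with 658, 611 and 641 in WT and 977, 646 and 812 in KO. Without KO replicate 1 the median was 0.11 and 8 of 9 values were positive. KO replicate 1 is the library with high muscle, erythrocyte and nerve markers, while KO replicate 3, next in order, had muscle markers at 306 and erythrocyte markers at 73.4. The part of these cells in the synthetase values was not tested.

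**Figure D4:**
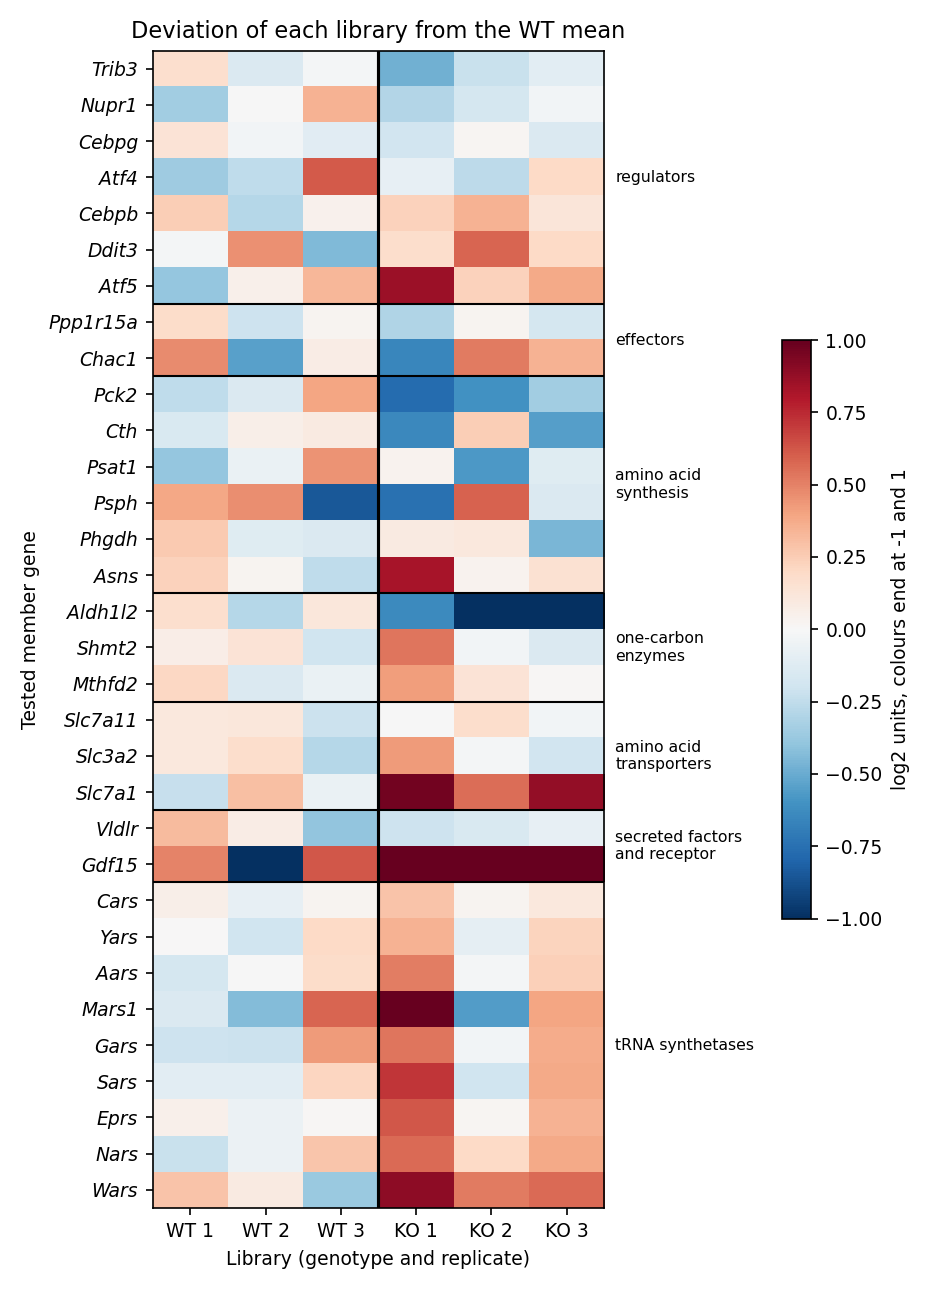
Deviation of each library (columns) from the WT mean in log2 units (colours, ending at -1 and 1) for the 32 tested genes (rows), grouped by role. The Gdf15 and Slc7a1 rows are red in all 3 KO libraries, the Aldh1l2 row is blue in them, and in the synthetase block KO replicate 1 is the reddest KO column and KO replicate 2 the palest or blue.

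The wider pathway gave 2 further limma calls, both higher in KO, where 1.22% of all tested genes were called higher and 0.583% lower. Among the kinases, eIF2 and eIF2B subunits and their regulators, 0 of 18 tested genes passed with limma, edgeR or DESeq2 and 2 had an unadjusted limma p under 0.05. The 2 smallest p-values were those of Nck1, an adaptor that binds PERK (log2 fold change of -0.62, limma adjusted p = 0.323), and Gcn1, the ribosome-bound activator of GCN2 (0.51, limma adjusted p = 0.353). Among the other cytosolic synthetases and their scaffold, 0 of 13 passed by any of the 3 tools, 1 had an unadjusted limma p under 0.05 and 11 were positive, with a median of 0.26 that became 0.11 without KO replicate 1. Farsb and Farsa, the subunits of the phenylalanine enzyme, had 0.67 and 0.43 (limma adjusted p = 0.197 and 0.513), and Farsb passed with a weight per library (limma adjusted p = 0.0265). Mitochondrial synthetases, encoded by separate genes, had a median of -0.01 and 0 calls among 15 by the 3 tools (1 at an unadjusted limma p under 0.05), with Rars2 (-0.50) and Sars2 (0.70) first by p (limma adjusted p = 0.344 and 0.538).

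Of 16 other tested genes linked to ATF4, 2 rose and 0 fell with limma, against 1.22% and 0.583% of all tested genes. In that list 4 had an unadjusted limma p under 0.05, as did 13.5% of all tested genes. All KO values lay above all WT values for 7 of the 16, and for 9.84% of all tested genes. Tnfrsf10b, the TRAIL death receptor DR5 that CHOP and p53 induce, gave 17.0, 16.6 and 14.4 in WT and 99.7, 79.3 and 61.9 in KO. All KO values lay far above WT (limma adjusted p = 0.00305 for a log2 fold change of 2.24 ± 0.27 SE), and the gene passed whichever library was left out. Sesn2, a leucine sensor upstream of mTORC1 that both ATF4 and p53 induce, gave 83.9, 87.3 and 75.7 in WT and 173, 159 and 143 in KO. Its groups did not overlap (log2 fold change 0.93 ± 0.19 SE, limma adjusted p = 0.0350), yet the call was lost whichever library was left out (highest limma adjusted p = 0.128). It was also lost with equal library totals (limma adjusted p = 0.0893), a covariate for the style of library name, digits or a letter (0.0628), and the replicate number as a block (0.0607). Both genes are also in the authors' deposited table of called genes, which comes from the same libraries and is not independent.

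Slc38a2, an importer of neutral amino acids, and Eif4ebp1, a repressor of cap-dependent translation, came next in that list, with log2 fold changes of 0.56 and 0.80. Their groups did not overlap and they did not pass (limma adjusted p = 0.146 and 0.147). Of 15 further one-carbon and sulfur genes 0 passed with limma, edgeR or DESeq2, and 2 had an unadjusted limma p under 0.05. Limma called 1.22% of all tested genes higher and 0.583% lower, and 13.5% had an unadjusted p under 0.05. Mthfd1l, the mitochondrial enzyme that releases formate, averaged 70.5 ± 9.09 in WT against 126 ± 22.1 in KO, a log2 fold change of 0.83 (limma adjusted p = 0.0917, and 0.0248 with a weight per library). Mat2a, which makes S-adenosylmethionine, had a log2 fold change of 0.57 (limma adjusted p = 0.199).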

How the data were processed

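The authors deposited normalised read counts per gene and library, a linear signal per the file headers. A second deposited file holds, for called genes, log2 fold changes, a score (the test statistic) and p-values with their q-values, per the file headers. Tools listed in the submitters' processing notes, with no version, are FastQC for read quality, STAR, featureCounts and DESeq2. Genome build, annotation and strand setting were not given in the sources used here. Each value column carries a library name found in 1 sample's labels, and 0 columns were left over.

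Each library's values were whole multiples of 1 step (100% to within 0.01 of a read), so whole reads were recovered. Values were transformed to log2(value + 1), genes were kept if 3 or more libraries reached 10, and limma 3.58.1 tested KO against WT, with an intensity trend (R 4.3.3, two-sided, Benjamini-Hochberg adjustment at 0.05). The fit was tested on simulated data. The count tests on recovered reads called 190 genes with edgeR 4.0.16 and 371 with DESeq2 1.42.0, against 198 with limma. An exact permutation test of 3 against 3 cannot go below 0.1, so none was used. Depth was 4606309 to 6286153 reads, and limits from counts of 0 cover counting error only.

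The genes and lists were chosen with earlier results of these data known, so no test over a list was made. Named genes were those with an unadjusted p under 0.05 or groups that do not overlap, Atf4, Ddit3, Asns and Trib3, and, of each pathway list, the called genes and the 2 with the smallest p. D10Wsu102e, Gm20388, the genes inside it and the markers Dcn, Itgb4 and Mlana were named after their values were seen. Promoter windows are from RefSeq (GRCm38.p6) and gene models from GENCODE M21.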

Additional observations from a re-analysis of the deposited data

How the results depend on the processing

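Of the 32 tested genes, 1 (Gdf15) passed in the fit described and with another pseudocount (0.5 or 4), no filter, equal library totals, TMM factors, quantile normalisation, edgeR, a covariate for the style of library name (digits or a letter), or a filter on the mean over all libraries, which was chosen after seeing the data. The count was 0 with a filter at 50, which removes Gdf15, 3 with a weight per library (Gdf15, Slc7a1 and Aldh1l2), 2 with DESeq2 (Gdf15 and Slc7a1), and 0 to 1 with single libraries left out (0 without KO replicate 1). Among all tested genes 198 passed, and the count was 590 with a weight per library, 371 with DESeq2, 82 with the name style as a covariate and 68 to 186 with single libraries left out (80 without WT replicate 2, and 75, 112 and 68 when KO replicate 1, 2 or 3 was dropped). The labels do not say what the name style stands for. The median log2 fold change of the set was 0.07 (without KO replicate 1) to 0.20 (name style as a covariate) over all alternatives. The sign of Atf4 changed, from -0.05 to 0.24 with a weight per library and to 0.26 and 0.06 without WT replicate 3 or KO replicate 2 (range -0.23 to 0.26). The causes were not tested. Deviations from the group mean had correlations of -0.25, 0.03 and 0.28 between samples with the same replicate number. So few values cannot show whether the numbers pair the mice. With the replicate number as a block 1 gene of the set and 178 of the whole table passed, and the median stayed at 0.13. Of the calls of Gdf15, Tnfrsf10b and Sesn2, that of Sesn2 alone was lost. The marker calls (Itgb4, Dcn and Mlana) were not followed through the alternatives. At this depth the level of Gdf15 in WT rests on 1 to 5 reads a library and that of Pck2 on 7 to 14.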
